A study of Mus musculus with 3 samples.

Results

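The variable segments of the mouse immunoglobulin kappa light chain are described here as 1 group, the 160 genes whose symbol starts with Igkv among the 32285 genes of the matrices. B cell barcodes were chosen by rule: at least 200 detected genes, at most 10% of UMIs (unique molecular identifiers, 1 per captured transcript) from mitochondrial genes, at least 1 UMI of Cd79a, which encodes a signalling chain of the B cell receptor, and no UMI of the macrophage gene Csf1r or the T cell gene Cd3e. This left 7210 barcodes: 2205 of 7512 for Control, 3735 of 9753 for the library labelled HHcy and 1270 of 8557 for WD. Each was assigned its top Igkv gene where that gene had at least 3 UMIs. That held for 114 barcodes, 1 of which had a tie and was left unassigned, so that 113 cells carried the usage at this minimum: 27, 62 and 24 in the 3 libraries, in that order. The measurements come from 3′ single-cell RNA sequencing of live CD45+ cells sorted from digested whole aortas, adventitia included. All mice were labelled ApoE-/- on C57BL/6J. The Control group carried no treatment in the labels, the HHcy group drank water with homocysteine at 1.8 g/L over 4 weeks, and the WD group ate a western diet over 4 weeks. There was 1 library per group, and the labels give neither the number of mice in a library nor their age. Differences between libraries therefore have no replicate check and no test, and the intervals given below are exact 95% Clopper-Pearson or Poisson intervals that cover counting error only.

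A B cell makes its light chain from 1 variable segment joined to 1 joining segment and the constant segment, either at the kappa locus (constant gene Igkc) or at the lambda locus (constant genes Iglc1, Iglc2 and Iglc3). The chosen variable segment forms part of the antigen-binding site, so the segment read in a cell marks its receptor, and cells that descend from 1 cell share it. Innate-like B1 cells, which are frequent in body cavities, are known for recurrent receptors, among them antibodies to phosphatidylcholine made with Igkv14-126 or Igkv4-91, while follicular B cells carry a broad repertoire.

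The genotype label was checked first. Apoe had 1090 UMIs for Control, 39368 for the library labelled HHcy and 1801 for WD, which is 16.3, 374 and 19.3 CPM (UMIs of the gene scaled to a common total over all genes). The level in the library labelled HHcy goes against its ApoE-/- label, and since the labels do not name the allele it is not known whether these 3′ tags lie outside the altered stretch. Pairs of libraries shared 20 to 24 barcode sequences, 0 to 3 of them among the B cell barcodes. Median depth of the B cell barcodes was 7576, 6525 and 6694 UMIs in Control, the library labelled HHcy and WD.

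The V exons of 5 segments on which the results below turn, or their last 300 bases where the exon is longer, are printed from the GENCODE M21 transcripts (build GRCm38, chromosome 6), 5′ to 3′ in the direction of transcription, with the codon of the last in-frame cysteine in capitals. The bases after that codon are the germline start of the third complementarity-determining region, the loop that differs most between light chains. Igkv14-126 (chr6:67896345-67896642, plus strand) and Igkv4-91 (chr6:68768555-68768854, minus strand) are shown as the phosphatidylcholine-associated pair, and Igkv1-117 (chr6:68121528-68121827), Igkv1-110 (chr6:68270968-68271267) and Igkv1-135 (chr6:67610209-67610508), all on the plus strand, as the 3 most used segments.
Igkv14-126: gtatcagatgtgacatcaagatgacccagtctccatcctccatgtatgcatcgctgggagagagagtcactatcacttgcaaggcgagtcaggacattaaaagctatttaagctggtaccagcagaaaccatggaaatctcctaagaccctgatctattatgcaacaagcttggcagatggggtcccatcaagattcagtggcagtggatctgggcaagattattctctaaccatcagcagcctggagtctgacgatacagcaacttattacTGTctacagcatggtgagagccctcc
Igkv4-91: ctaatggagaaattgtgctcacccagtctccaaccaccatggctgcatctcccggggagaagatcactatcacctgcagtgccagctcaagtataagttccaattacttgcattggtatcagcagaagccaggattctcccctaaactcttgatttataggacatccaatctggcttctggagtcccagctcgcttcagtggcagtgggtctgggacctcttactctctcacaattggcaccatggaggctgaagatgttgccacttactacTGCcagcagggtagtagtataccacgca
Igkv1-117: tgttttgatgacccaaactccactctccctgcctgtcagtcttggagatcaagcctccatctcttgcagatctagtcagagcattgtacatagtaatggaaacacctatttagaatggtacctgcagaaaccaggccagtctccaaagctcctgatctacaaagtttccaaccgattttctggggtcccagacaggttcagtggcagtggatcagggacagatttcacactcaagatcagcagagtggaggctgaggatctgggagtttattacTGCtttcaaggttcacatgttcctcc
Igkv1-110: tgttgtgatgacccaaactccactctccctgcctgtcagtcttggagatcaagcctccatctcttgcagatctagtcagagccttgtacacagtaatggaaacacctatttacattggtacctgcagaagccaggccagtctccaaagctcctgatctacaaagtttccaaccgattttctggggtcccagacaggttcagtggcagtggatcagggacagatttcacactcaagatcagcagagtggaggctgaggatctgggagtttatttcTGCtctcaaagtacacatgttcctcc
Igkv1-135: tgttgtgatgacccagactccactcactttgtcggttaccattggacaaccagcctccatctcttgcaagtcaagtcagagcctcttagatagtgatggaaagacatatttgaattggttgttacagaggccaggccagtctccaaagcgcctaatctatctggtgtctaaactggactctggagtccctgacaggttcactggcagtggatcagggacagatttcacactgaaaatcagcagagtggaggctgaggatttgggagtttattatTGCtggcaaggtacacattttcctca
The V exons of Igkv1-110 and Igkv1-117 differ at 10 bases (96.8% identity) and share an unbroken run of 142 bases, so reads within that run cannot be told apart and UMIs of these 2 genes are uncertain between them. Igkv1-135 has 79.6% identity with Igkv1-117, and its own nearest gene is Igkv1-133 (96.5%). Igkv14-126 is more separate, with 90.9% identity to its nearest gene, Igkv14-111, and a longest shared run of 44 bases with it. Nearest genes are those among the 99 other functional genes compared. Pseudogenes, such as Igkv14-126-1, were not compared. Igkv17-121 and Igkv17-127 (96.2%, shared run of 143 bases) and Igkv5-43 and Igkv5-45 (99.0%, shared run of 193 bases) carry the same doubt as Igkv1-110 and Igkv1-117. Shorter runs of 95, 90 and 82 bases join Igkv1-135 to Igkv1-133, Igkv12-44 to Igkv12-41 and Igkv10-96 to Igkv10-94. Reads within those runs cannot be told apart either.

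Variable segments were seen in a minority of B cells. At least 1 Igkv UMI was present in 499 of 2205 B cell barcodes of Control (22.6%), in 706 of 3735 of those labelled HHcy (18.9%) and in 294 of 1270 of those from WD (23.1%). At least 3 UMIs of 1 gene were present in 1.22%, 1.69% and 1.89%. Igkc, read from the same transcripts at their 3′ end, had a median of 35, 38 and 35 UMIs per cell, and the Igkv genes together gave 5.88 (5.47 to 6.31), 3.90 (3.74 to 4.06) and 6.06 (5.63 to 6.52) UMIs per 1000 Igkc UMIs. The 3′ chemistry reads the polyadenylated end, and the variable segment lies at the opposite end of the transcript. The ratio was lowest in the library labelled HHcy, with an interval that did not overlap those of the other libraries. The background was lower: among macrophage barcodes (Csf1r with no Cd79a or Cd3e UMI; median depth 8393, 8865 and 10117 UMIs) 0.155%, 0.846% and 0.209% had an Igkv UMI, and among T cell barcodes (median depth 5403, 6023 and 5601 UMIs) 1 of 103, 1 of 135 and 0 of 104 did, the last of which allows a share of up to 2.88%. No macrophage barcode reached 3 Igkv UMIs of 1 gene in any library, which allows up to 0.155%, 0.231% and 0.105%.

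Antibody-secreting cells held a large part of the Igkv UMIs in 2 of the 3 libraries. Barcodes with at least 1 UMI of Sdc1 (syndecan-1, a plasma cell surface protein) and 10 of Jchain (the joining chain of secreted IgM and IgA), a rule chosen after the values were seen, numbered 10, 48 and 9. They held 9 of 27, 43 of 62 and 9 of 24 assigned cells, 61 of 113 in all, and 15.7%, 62.2% and 41.5% of all Igkv UMIs of the B cell barcodes. The 3-UMI minimum therefore read mainly plasma-marked cells in the library labelled HHcy. Among plasma-marked assigned cells, the leading heavy-chain constant gene was Ighm (IgM) in 1 of 9, 15 of 43 and 4 of 9, and Igha (IgA) in 3 of 9, 4 of 43 and 2 of 9. Among the other assigned cells it was Ighm in 16 of 18, 14 of 19 and 15 of 15. Over all B cell barcodes with a call it was Ighm in 95.7%, 94.6% and 95.3%.

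Of the 160 Igkv genes, 107 had a UMI in at least 1 library, 59 had one in all 3 and 53 had none. All 160 identifiers matched the GENCODE annotation, which places them at chr6:67555497-70704177 (GRCm38), from 18.4 to 3166 kb before Igkj1, the first joining segment (chr6:70722562-70722599), with Igkc at chr6:70726435-70726966. It lists 100 as functional V genes and 60 as pseudogenes. Of the functional genes, 9 had no UMI, and of the pseudogenes, 16 had one. Pseudogenes held 1.56% of the Igkv UMIs and no assigned cell at 3 UMIs. Because 27, 62 and 24 cells spread over 19, 29 and 14 genes leave few cells per gene, usage is also given at the lower minimum of 1 UMI, which assigned 459, 658 and 276 cells after 40, 48 and 18 ties were left out. Of the 771 cells assigned to a gene outside the 12 singled out below, 628 rest on 1 UMI.

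Usage at 1 UMI was spread along the locus but was highest at the end farthest from Igkc. The window 2400 to 3200 kb before Igkj1 holds 20 functional genes and took 40.5% (36.0 to 45.2), 38.1% (34.4 to 42.0) and 44.2% (38.3 to 50.3) of assigned cells in Control, the library labelled HHcy and WD. The window nearest to Igkj1, 0 to 800 kb, holds 33 functional genes and took 24.8% (20.9 to 29.1), 23.7% (20.5 to 27.1) and 19.2% (14.7 to 24.4). Segments in the same orientation as Igkc, which join by deletion, and those in the opposite orientation, which join by inversion, were used side by side: 52.5% (47.8 to 57.2), 49.4% (45.5 to 53.3) and 56.5% (50.4 to 62.5) of cells had a segment in the same orientation. These shares differed between libraries by less than the width of their intervals. The plot of assigned cells along the locus shows the tall distal segments.

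**Figure D1:**
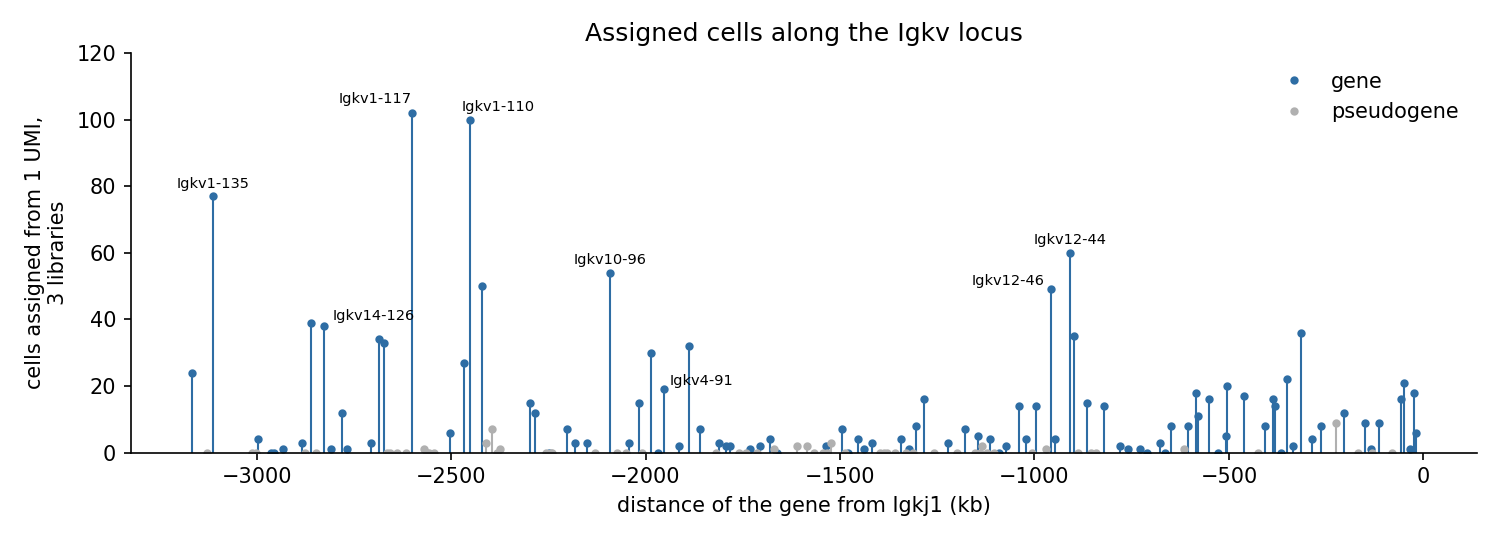
Cells assigned to each Igkv gene from 1 UMI, summed over the 3 libraries, against the distance of the gene from Igkj1 in kb (negative is upstream); blue marks functional genes and grey pseudogenes. Igkv1-117 (102 cells), Igkv1-110 (100 cells) and Igkv1-135 (77 cells) stand highest, all more than 2400 kb from Igkj1.

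Igkv1-117 and Igkv1-110 were the 2 most used segments in all 3 libraries. Igkv1-117 was the top gene of 8.06% (5.74 to 10.9), 6.69% (4.90 to 8.87) and 7.61% (4.77 to 11.4) of assigned cells, in the same order of libraries. Igkv1-110 took 5.88% (3.91 to 8.44), 6.84% (5.03 to 9.04) and 10.1% (6.85 to 14.3). Igkv1-135 took 4.36% (2.68 to 6.65), 5.93% (4.25 to 8.01) and 6.52% (3.91 to 10.1). All 3 belong to the Igkv1 family, and the order of Igkv1-117 and Igkv1-110 is within their intervals in each library. For the library labelled HHcy over Control, 16 genes had at least 20 cells in the libraries compared, and the interval of the ratio of shares left out 1 for 2 of them. Igkv12-46 and Igkv2-109 had the same counts, 24 of 459 cells in Control and 17 of 658 in the library labelled HHcy, a ratio of 0.494 (0.249 to 0.959). The ratio farthest above 1 was that of Igkv19-93, 2.21 (0.848 to 6.76), from 6 and 19 cells, followed by Igkv5-43 with 1.57 (0.649 to 4.17) from 8 and 18 cells. For WD over Control, 8 genes had at least 20 cells and no interval left out 1. Igkv1-110 had the highest ratio, 1.72 (0.980 to 3.04), and Igkv12-46 the lowest, 0.554 (0.215 to 1.28).

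**Figure D2:**
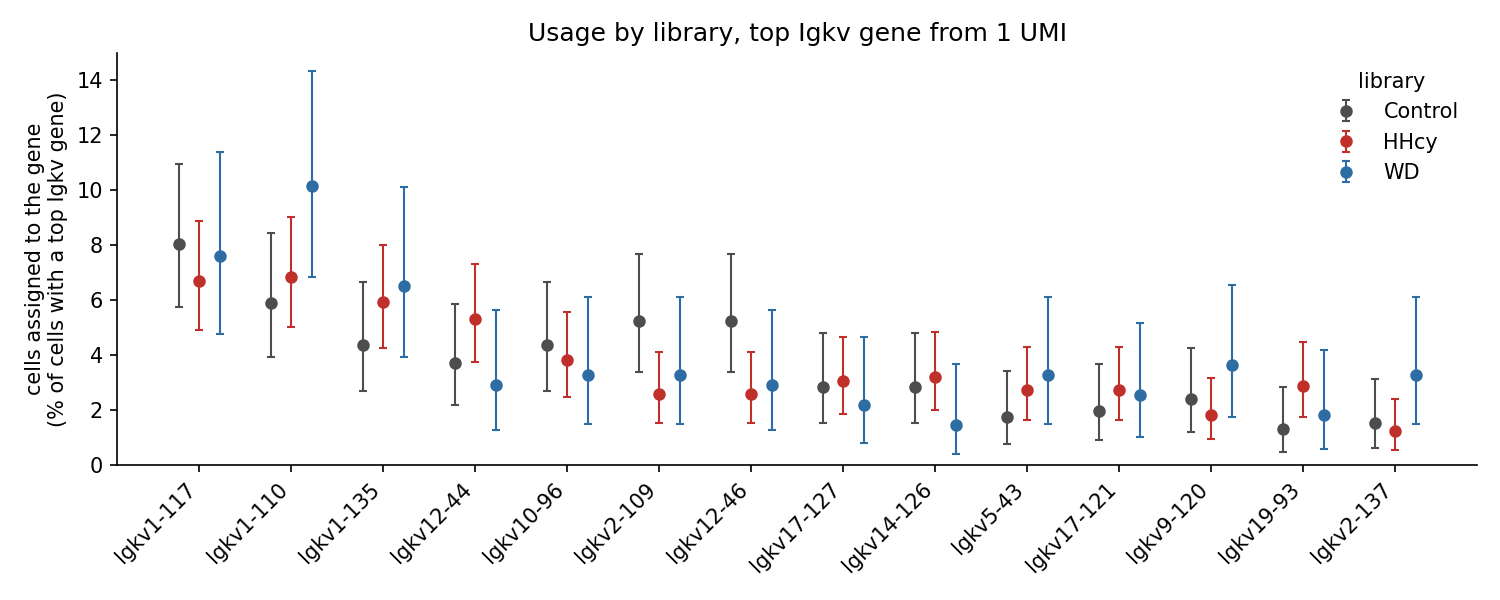
Share of cells assigned to each of the 14 most used named Igkv genes (percent of cells with a top Igkv gene from 1 UMI), by library, with exact 95% intervals. The intervals of the 3 libraries overlap for each gene shown; Igkv1-110 in WD is the highest point at 10.1%.

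The evenness of usage was described by the Simpson index, the chance that 2 different assigned cells of a library have the same segment. At 1 UMI it was 2.77% ± 0.21 (standard error), 2.73% ± 0.17 and 3.13% ± 0.36 in Control, the library labelled HHcy and WD, and the intervals these errors give overlap between libraries. At 3 UMIs it was 2.56% ± 0.95, 3.75% ± 0.75 and 13.8% ± 6.40. In Control Igkv1-117 led with 3 of 27 cells. In the library labelled HHcy Igkv1-117 and Igkv4-61 led with 6 of 62 cells each, followed by Igkv1-135 with 5. The WD value rests on 1 segment: Igkv1-110 was the top gene of 9 of 24 cells (37.5%, 18.8 to 59.4), against 0 of 27 in Control, which allows up to 11.1%, and 3 of 62 in the library labelled HHcy (4.84%, 1.01 to 13.5). In WD the 9 cells had 3 to 33 Igkv1-110 UMIs, 1 of them was plasma-marked, and Ighm led among their heavy-chain constant genes in all 9. The 3 cells of the library labelled HHcy were all plasma-marked and had 27 to 33 UMIs.

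Usage was next compared between cells with at least 1 UMI of Fcer2a and none of Bhlhe41 or Zbtb32, and cells with at least 1 UMI of Bhlhe41 or Zbtb32 and none of Fcer2a. Fcer2a encodes CD23, a surface receptor of follicular B cells, and Bhlhe41 and Zbtb32 encode transcription factors known from B1 cells. The classes held 556, 2028 and 362 Fcer2a cells and 784, 515 and 370 Bhlhe41/Zbtb32 cells in Control, the library labelled HHcy and WD. Listed follicular and B1 markers that did not choose the classes followed the same split, apart from Cxcr5. The follicular marker Cxcr5 stood at 140, 118 and 129 CPM in Fcer2a cells. In Bhlhe41/Zbtb32 cells it was higher, at 209, 171 and 212 CPM. Ighd, the IgD heavy chain of naive B cells, stood at 620, 842 and 699 CPM in Fcer2a cells and 62.7, 80.6 and 46.5 CPM in Bhlhe41/Zbtb32 cells. S100a6, a calcium-binding protein, stood at 259, 186 and 236 CPM in Fcer2a cells and 3054, 1842 and 2610 CPM in Bhlhe41/Zbtb32 cells, and Ctla4, an inhibitory receptor known from B1a cells, at 5.54, 7.22 and 6.19 against 124, 88.4 and 92.4 CPM. The classes also differed in depth and in secreting cells. Median depth was 5668, 6138 and 5386 UMIs in Fcer2a cells and 11121, 12013 and 11251 UMIs in Bhlhe41/Zbtb32 cells, and plasma-marked cells numbered 0, 1 and 0 against 8, 33 and 6. The summed level of the 4 neutrophil markers (S100a8, S100a9, Retnlg, Csf3r) was 945 to 2512 CPM in Fcer2a cells and 165 to 535 CPM in Bhlhe41/Zbtb32 cells, that of the 7 macrophage markers 392 to 637 against 216 to 346 CPM, and that of the 6 T cell markers 27.3 to 33.2 against 22.6 to 28.3 CPM. Csf1r and Cd3e were at 0 by rule. The part of these differences in the usage values was not tested, apart from the depth and plasma-marked values given below.

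On all UMIs, Igkv transcripts were detected in more Bhlhe41/Zbtb32 cells, while the number per Igkc UMI was slightly lower there. At least 1 Igkv UMI was present in 17.4%, 15.4% and 19.3% of Fcer2a cells and in 31.2%, 31.7% and 34.9% of Bhlhe41/Zbtb32 cells, with non-overlapping intervals in each library. Cells with neither marker, 765, 1007 and 479 in number, had one in 17.1%, 17.2% and 16.3%. Per 1000 Igkc UMIs the values were 6.41, 4.03 and 6.69 in Fcer2a cells and 5.61, 3.77 and 6.15 in Bhlhe41/Zbtb32 cells, a mean difference of -0.53 ± 0.27 (SD, n = 3 libraries), with overlapping intervals in each library. When the Igkv UMIs were thinned to 2000 UMIs per cell, shares with at least 1 Igkv UMI were 6.58% (4.65 to 8.995), 4.94% (4.04 to 5.98) and 6.76% (4.38 to 9.89) in Fcer2a cells and 6.90% (5.22 to 8.90), 10.3% (7.82 to 13.3) and 10.0% (7.14 to 13.5) in Bhlhe41/Zbtb32 cells. At this common depth, with cells and classes chosen on all UMIs, only the library labelled HHcy, which held 33 of the plasma-marked Bhlhe41/Zbtb32 cells, had non-overlapping intervals. Thinning after the choice of classes was added once the values were seen. In the planned thinning, which also chose cells and classes on the thinned UMIs, shares were 5.68%, 5.05% and 8.92% in Fcer2a cells and 4.55%, 7.09% and 7.10% in Bhlhe41/Zbtb32 cells. There they were lower in Bhlhe41/Zbtb32 cells of Control and WD, higher in those of the library labelled HHcy, and the intervals overlapped in each library.

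**Figure D3:**
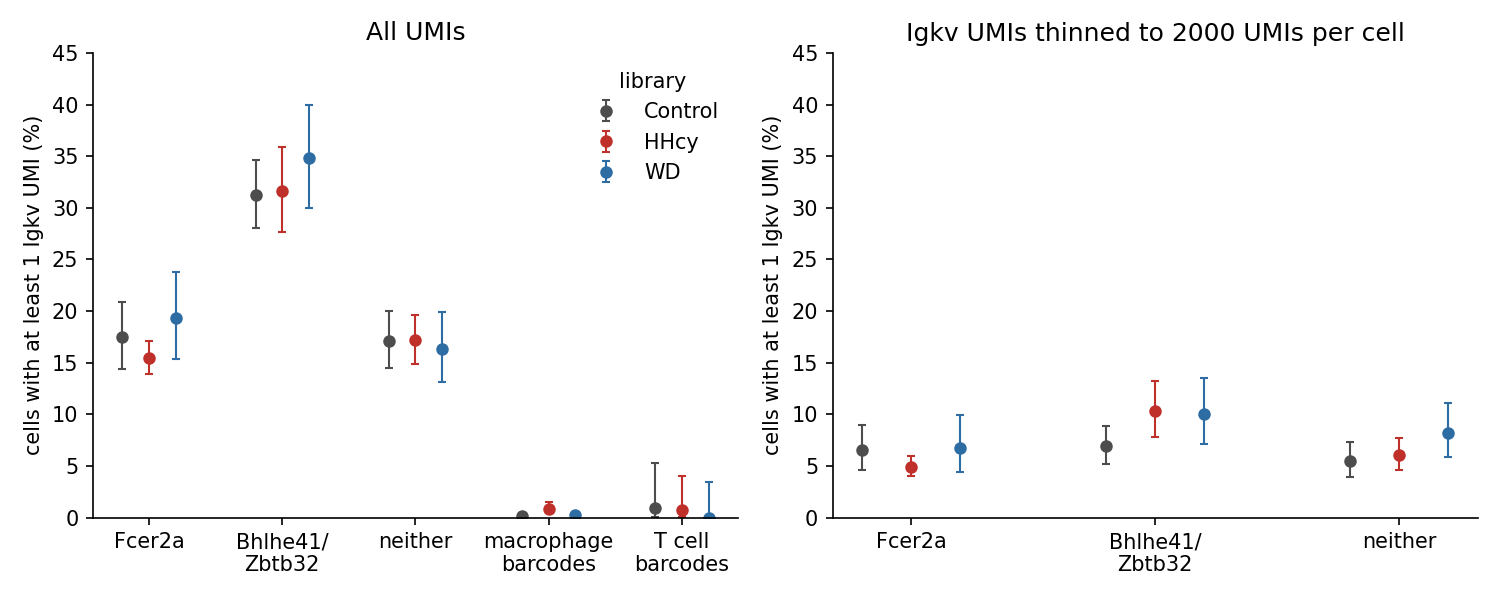
Share of cells with at least 1 Igkv UMI by cell class and library, with exact 95% intervals, on all UMIs (left) and with the Igkv UMIs thinned to 2000 UMIs per cell (right); macrophage and T cell barcodes show the background. Bhlhe41/Zbtb32 cells lie at 31.2% to 34.9% on all UMIs and at 6.90% to 10.3% after thinning.

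At the 3-UMI minimum no Igkv gene had 20 assigned cells over the 2 classes, since only 3, 9 and 2 Fcer2a cells and 18, 37 and 18 Bhlhe41/Zbtb32 cells were assigned. Within each library the Fcer2a cells had different genes. At 1 UMI, 14 genes had at least 20 cells, and 5 of them had a difference of one sign in 3 of 3 libraries: Igkv14-126 and Igkv2-109 were higher in Bhlhe41/Zbtb32 cells, and Igkv12-44, Igkv19-93 and Igkv5-43 were lower. With 3 libraries an exact two-sided sign-flip test cannot go below 0.25, so no p-value is given for them. A gene without a class difference would likewise have one sign in 3 of 3 libraries with a chance of 0.25. The count of 5 among 14 is therefore not read as a result.

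Igkv14-126 stood farthest from an even split. It was the top gene of 0 of 92, 1 of 299 and 0 of 69 Fcer2a cells and of 10 of 219, 16 of 142 and 3 of 120 Bhlhe41/Zbtb32 cells in Control, the library labelled HHcy and WD. The shares were 0% (up to 3.26% by 3 counts), 0.334% (0.00847 to 1.85) and 0% (up to 4.35%) against 4.57% (2.21 to 8.24), 11.3% (6.58 to 17.7) and 2.50% (0.519 to 7.13). The mean difference was 6.00 percentage points ± 4.40 (SD, n = 3 libraries), larger than its spread and higher in 3 of 3 libraries, and only the library labelled HHcy had intervals that did not overlap. Over all B cell barcodes Igkv14-126 had 38 cells: 29 Bhlhe41/Zbtb32 cells, 1 Fcer2a cell, 2 with both markers and 6 with neither. None was plasma-marked, none was called lambda by the constant genes, and 30 rested on 1 UMI. Their summed level of 7 B1 markers that did not choose the class (Spn, Cd5, Ctla4, Plscr1, Ahnak, S100a6, Myo1d) was 4326 CPM, against 2012 CPM in cells of the genes outside the 12 singled out here. Bhlhe41/Zbtb32 cells made up 76.3% of the Igkv14-126 cells and 31.8% of the others. The levels were not compared within a class, so they add nothing beyond the class split. The median depth of the Igkv14-126 cells was 12074 UMIs against 8374. Among cells with over 10000 UMIs, Igkv14-126 took 9 of 153, 15 of 115 and 3 of 93 assigned Bhlhe41/Zbtb32 cells. It took 0 of 15, 0 of 57 and 0 of 10 Fcer2a cells there. Only the library labelled HHcy had intervals apart at this depth, 7.49% to 20.6% against 0% to 6.27%. Pooled over libraries of different treatments, the counts were 27 of 361 (7.48%) and 0 of 82. Among cells with 5000 to 10000 UMIs, also pooled, Igkv14-126 took 2 of 102 and 1 of 289, and no difference was detectable there.

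Igkv4-91, the other light-chain segment of phosphatidylcholine-binding antibodies, was rarer. It was the top gene of 1 of 92, 1 of 299 and 0 of 69 Fcer2a cells and of 7 of 219, 3 of 142 and 2 of 120 Bhlhe41/Zbtb32 cells, a mean difference of 1.85 percentage points ± 0.23 (SD, n = 3 libraries). The share was higher in Bhlhe41/Zbtb32 cells in 3 of 3 libraries, but the intervals overlapped in each, and the gene had 14 cells over both classes, under the minimum of 20. Igkv7-33, the light chain of phosphorylcholine-binding antibodies of the T15 type, had 0 UMIs in the B cell barcodes of all 3 libraries.

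The other genes with one sign in 3 of 3 libraries differed less. Igkv2-109 took 3.26%, 2.68% and 2.90% of Fcer2a cells and 4.57%, 2.82% and 4.17% of Bhlhe41/Zbtb32 cells, a mean difference of 0.90 percentage points ± 0.66 (SD, n = 3). Igkv12-44 took 3.26%, 6.69% and 4.35% against 2.74%, 3.52% and 0.833%, a mean difference of -2.40 ± 1.64. Igkv19-93 took 3.26%, 3.34% and 2.90% against 0.913%, 1.41% and 0.833%, a mean difference of -2.12 ± 0.21. These shares rest on 3, 10 and 2 against 2, 2 and 1 cells, so the small SD is not read as steadiness. Igkv5-43 took 1.09%, 4.01% and 4.35% against 0.913%, 2.11% and 2.50%, a mean difference of -1.31 ± 0.98. The highest of these shares rests on 20 cells and the lowest on 1, and the within-library intervals of the 4 genes overlapped between classes.

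The class difference of Igkv1-110 had no common sign over the libraries at all depths. It was the top gene of 4.35% (1.20 to 10.8), 6.02% (3.61 to 9.35) and 1.45% (0.0367 to 7.81) of Fcer2a cells and of 7.31% (4.23 to 11.6), 5.63% (2.46 to 10.8) and 17.5% (11.2 to 25.5) of Bhlhe41/Zbtb32 cells. Only in WD did the class intervals not overlap, with 1 of 69 against 21 of 120 cells, and the difference between libraries was not tested. The mean difference of 6.21 percentage points ± 8.69 (SD, n = 3) was smaller than its spread. Among cells of 5000 to 10000 UMIs, a range chosen after the values were seen, the Igkv1-110 share was higher in Bhlhe41/Zbtb32 cells in each library. There Igkv1-110 took 2 of 53, 11 of 195 and 0 of 41 Fcer2a cells against 6 of 55, 4 of 23 and 4 of 24. The intervals overlapped in each library. Above 10000 UMIs the sign was mixed, with 6.67%, 8.77% and 0% against 6.54%, 3.48% and 18.3%. Below 5000 UMIs it took 4 of 89 and 0 of 18 cells pooled over libraries. Of the 9 WD cells with at least 3 UMIs, 8 were Bhlhe41/Zbtb32 cells, and those 8 were not plasma-marked. Igkv1-117 and Igkv1-135, which also lead the list, had no common sign over the libraries, with mean differences of 2.09 ± 2.87 and -3.72 ± 4.97 percentage points.

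**Figure D4:**
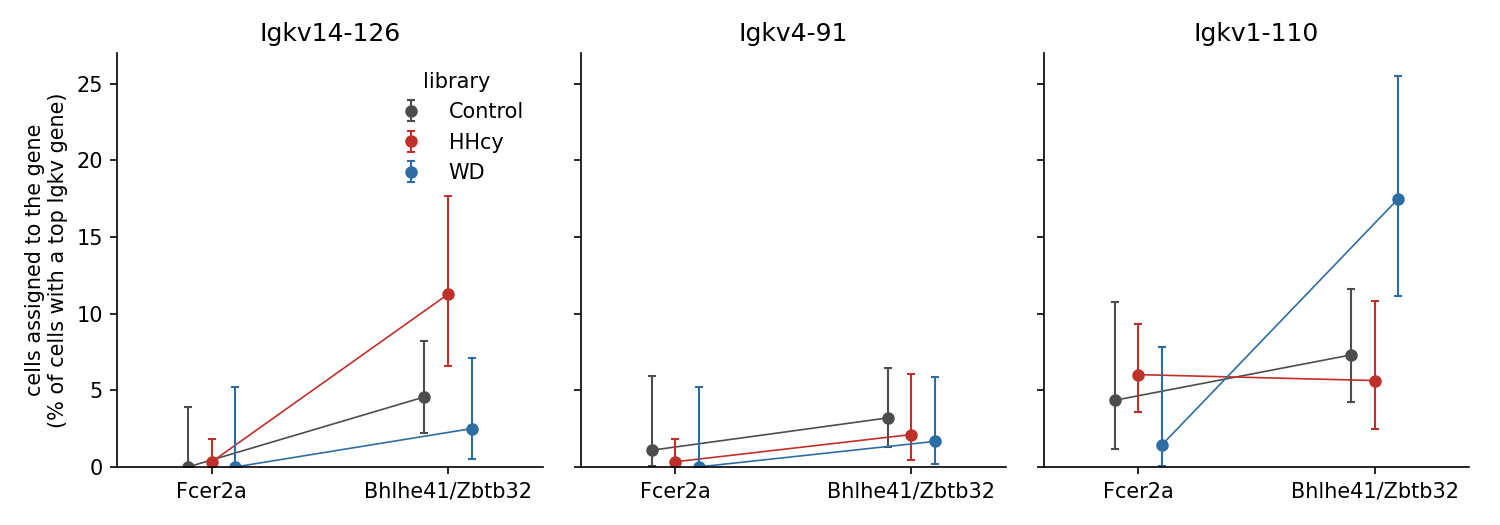
Share of assigned cells (percent, top Igkv gene from 1 UMI) with Igkv14-126, Igkv4-91 or Igkv1-110 as top gene in Fcer2a and Bhlhe41/Zbtb32 cells, with exact 95% intervals; each line joins the classes of 1 library. Igkv14-126 lies at 0% to 0.334% in Fcer2a cells and at 2.50% to 11.3% in Bhlhe41/Zbtb32 cells, and Igkv1-110 has class intervals apart in WD alone.

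Levels were tested on UMI sums per library and class, with edgeR's quasi-likelihood test, the library as a term and Benjamini-Hochberg adjustment over 10747 genes. The test asks about transcript level, so a secreting cell counts by all its UMIs. Of the 160 Igkv genes 5 passed the filter on low counts, and 2 were called higher in Bhlhe41/Zbtb32 cells and 0 lower. Over all genes, 31.6% were called, 16.5% higher and 15.2% lower in Bhlhe41/Zbtb32 cells, and since a low gene passes the filter more easily where it is high, nothing is read from the count of members. Igkv1-110 had 5, 20 and 3 UMIs in Fcer2a cells and 20, 69 and 74 in Bhlhe41/Zbtb32 cells of Control, the library labelled HHcy and WD, which is 1.32, 1.36 and 1.33 CPM against 2.11, 9.14 and 16.2 CPM. Of the 69 UMIs in the library labelled HHcy, 33 and 27 came from 2 plasma-marked cells. Igkv1-110 passed the filter on low counts only through its Bhlhe41/Zbtb32 sums, the class where it was high. Its values are therefore described and not read as support for a class difference. The log2 fold change was 2.65 (SE 0.43, edgeR adjusted p = 0.00168). Igkv1-117 had 9, 24 and 7 UMIs against 31, 94 and 18, or 2.37, 1.64 and 3.10 CPM against 3.27, 12.4 and 3.93 CPM, a log2 fold change of 1.82 (SE 0.51, edgeR adjusted p = 0.0248). Of its 94 UMIs in Bhlhe41/Zbtb32 cells of the library labelled HHcy, 60.6% came from 1 cell. Igkv2-109 (log2 fold change 1.31, edgeR adjusted p = 0.0550) and Igkv1-135 (1.90, adjusted p = 0.164) missed the threshold, and Igkv14-126 did not pass the filter. Without the library labelled HHcy no Igkv gene was called, and without plasma-marked cells Igkv1-110 did not pass the filter and Igkv1-117 had a log2 fold change of 0.56 (edgeR adjusted p = 0.218). Igkv2-109 was the only Igkv gene called without plasma-marked cells, higher in Bhlhe41/Zbtb32 cells. It was also called without barcodes of over 20% immunoglobulin UMIs and without the library term. In the main test it passed the filter only through the Bhlhe41/Zbtb32 sums, so these calls are not read as support either.

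The light-chain constant genes and their companions moved with the classes as well. Of 26 listed genes of light chains, heavy-chain constant regions and receptor assembly, Cd79a chose the barcodes and is not counted. Of the other 25, 19 were tested, and edgeR called 14 higher in Bhlhe41/Zbtb32 cells and 2 lower, where it called 16.5% of all genes higher and 15.2% lower. Their median log2 fold change was 1.66, against -0.0084 over all genes tested. Without the plasma-marked cells 12 were called higher and 2 lower, with a median of 0.61, where 34.2% of all genes were called, 17.9% higher and 16.3% lower, and Ighg2b and Xbp1 were no longer called. Igkc rose from 4937, 6900 and 5485 CPM to 7762, 43696 and 14889 CPM (log2 fold change 1.70, SE 0.30, edgeR adjusted p = 0.00243). That of Igkc was 0.38 without plasma-marked cells (edgeR adjusted p = 0.0101) and 0.71 without barcodes of over 20% immunoglobulin UMIs (edgeR adjusted p = 0.0108). Iglc1 rose from 333, 300 and 515 CPM to 475, 1276 and 1013 CPM (1.31, SE 0.23, edgeR adjusted p = 0.00265), and its log2 fold change was 0.78 without plasma-marked cells (edgeR adjusted p = 0.000570). Iglc2 and Iglc3, whose constant regions are near-identical so that their UMIs are uncertain between them, had log2 fold changes of 0.93 (edgeR adjusted p = 0.0346) and 0.37 (edgeR adjusted p = 0.0124). The call of Iglc2 was lost by DESeq2 (adjusted p = 0.275), without WD (edgeR adjusted p = 0.0656) and at no more than 5% mitochondrial UMIs (edgeR adjusted p = 0.0646), and that of Iglc3 without WD (edgeR adjusted p = 0.107). The lambda segment Iglv1 had 1.58, 14.5 and 4.42 CPM against 11.3, 250 and 17.5 CPM (3.80, SE 0.30, edgeR adjusted p = 2.4e-05). Without plasma-marked cells the log2 fold change of Iglv1 was 1.05 (edgeR adjusted p = 0.0262). Igha (6.96), Ighg2c (6.22) and Jchain (5.25), the last of which chose the plasma-marked cells, rose most among those called, and their log2 fold changes were 3.30, 1.26 and 1.66 without plasma-marked cells. Ighg1 (3.61, edgeR adjusted p = 0.234) and Iglv3 (1.46, edgeR adjusted p = 0.0558) were among those that missed the threshold. The 2 that fell were Ighd (-3.40) and Vpreb3 (-1.63), which assists light-chain assembly. Rag1, Rag2, Dntt, Vpreb1, Igll1 and Iglv2, most of which act in the making of the receptor genes or the precursor receptor, had too few UMIs to be tested.

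Partner heavy-chain segments were read where a cell also had an Ighv gene with at least 3 UMIs, in 60 cells: 8, 44 and 8. They formed 47 pairs, 9 of them in at least 2 cells and none in more than 1 library. Igkv4-61 with Ighv1-78 was the most repeated, in 5 of the 6 Igkv4-61 cells with a heavy chain, all 5 plasma-marked and from the library labelled HHcy. Those cells had 28 to 46 Igkv4-61 UMIs, and their leading constant genes were Igha and Ighg3. Igkv17-121 with Ighv1-74 followed in 3 plasma-marked cells of the same library, all with Ighg2b. The phosphatidylcholine-type pair of Igkv4-91 with Ighv12-3 was present in 2 of 3 Igkv4-91 cells, both plasma-marked, with Ighm and from the library labelled HHcy. Ighv12-3 was present in 4 of the 60 cells. It was as frequent with Igkv10-96, in 2 plasma-marked cells of the same library, both with Ighg2c. At 1 UMI for both chains, 258 cells had both. Igkv14-126 cells with a heavy chain numbered 2, and both had Ighv11-2, the other phosphatidylcholine-type partner, which was present in 5 of the 258 cells (1.94%). Both were Bhlhe41/Zbtb32 cells of the library labelled HHcy. Igkv4-91 had Ighv12-3 in 3 of 5 cells, 1 of them in Control, while Ighv12-3 was present in 6 of 258 (2.33%), 2 of which had Igkv10-96. In WD, 4 cells joined Igkv1-110 to Ighv1-47, 1 of them plasma-marked. Without sequence across the junction, a shared pair of segments does not show that cells descend from 1 cell.

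Kappa and lambda cells were told apart by the share of Igkc among the UMIs of Igkc, Iglc1, Iglc2 and Iglc3, in cells with at least 10 such UMIs: 2069, 3573 and 1181. Cells with at least 90% Igkc were called kappa, those with at most 50% lambda and the rest mixed. Kappa cells made up 18.2% (16.5 to 19.9), 33.4% (31.9 to 35.0) and 17.4% (15.3 to 19.7), lambda cells 12.0% (10.7 to 13.5), 7.98% (7.11 to 8.91) and 13.0% (11.2 to 15.1), and mixed cells 69.8%, 58.6% and 69.5%. The library labelled HHcy had the higher kappa and the lower lambda share, with intervals apart from both other libraries. The median Igkc share was 79.0%, 86.0% and 78.6%. The mixed band was not 2 chains at like level: its cells had a median of 42, 42 and 43 Igkc UMIs, 7, 5 and 7 Iglc2 UMIs, 3 Iglc3 UMIs and 1 Iglc1 UMI. In macrophage barcodes the median was 0, 3 and 0 Igkc UMIs and 0 for the lambda constant genes together, and the part of this background in the kappa share was not tested. A separate group of cells with under 10% Igkc made up 5.75%, 3.92% and 7.45% of light-chain cells, and few cells lay between 10% and 40%.

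The variable segments followed these calls. An Igkv UMI was present in 26.6% (22.2 to 31.4), 20.8% (18.5 to 23.2) and 27.2% (21.2 to 33.8) of kappa cells, in 25.6%, 20.7% and 26.9% of mixed cells, and in 10.4% (6.94 to 14.9), 7.37% (4.62 to 11.0) and 11.0% (6.56 to 17.1) of lambda cells. The shares in mixed cells lay within the intervals of those in kappa cells. Lambda cells carried a segment Iglv1, Iglv2 or Iglv3 in 13.3%, 20.4% and 20.1%, against 5.05%, 6.20% and 4.85% of kappa cells. Among lambda cells Iglc1 was the leading constant gene in 29.3%, 50.9% and 37.0%. Of the 113 cells assigned at 3 UMIs, 1 was called lambda, in Control.

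Lambda cells were more frequent in the Bhlhe41/Zbtb32 class. They made up 8.63% (6.39 to 11.3), 6.27% (5.25 to 7.43) and 8.62% (5.89 to 12.1) of Fcer2a cells and 13.6% (11.3 to 16.2), 12.4% (9.64 to 15.6) and 15.1% (11.6 to 19.2) of Bhlhe41/Zbtb32 cells. The mean difference was 5.86 percentage points ± 0.79 (SD, n = 3 libraries), higher in 3 of 3 libraries, with intervals apart in the library labelled HHcy and narrowly overlapping in the others. With cells thinned to 2000 UMIs before cells and classes were chosen, lambda cells made up 11.0%, 5.91% and 12.7% of Fcer2a cells and 13.0%, 13.6% and 14.5% of Bhlhe41/Zbtb32 cells. The thinned mean difference was 3.82 points ± 3.35 (SD, n = 3), close to its spread, and again only the library labelled HHcy had intervals apart. The kappa share fell by 8.15 points ± 3.14 (SD, n = 3), lower in 3 of 3 libraries. Among cells of 5000 to 10000 UMIs, chosen after the values were seen, lambda cells made up 5.84%, 5.54% and 7.03% of Fcer2a cells and 15.8%, 12.5% and 17.4% of Bhlhe41/Zbtb32 cells. The library labelled HHcy had the lowest lambda share within both classes, but the intervals of the 3 libraries overlapped within each class.

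**Figure D5:**
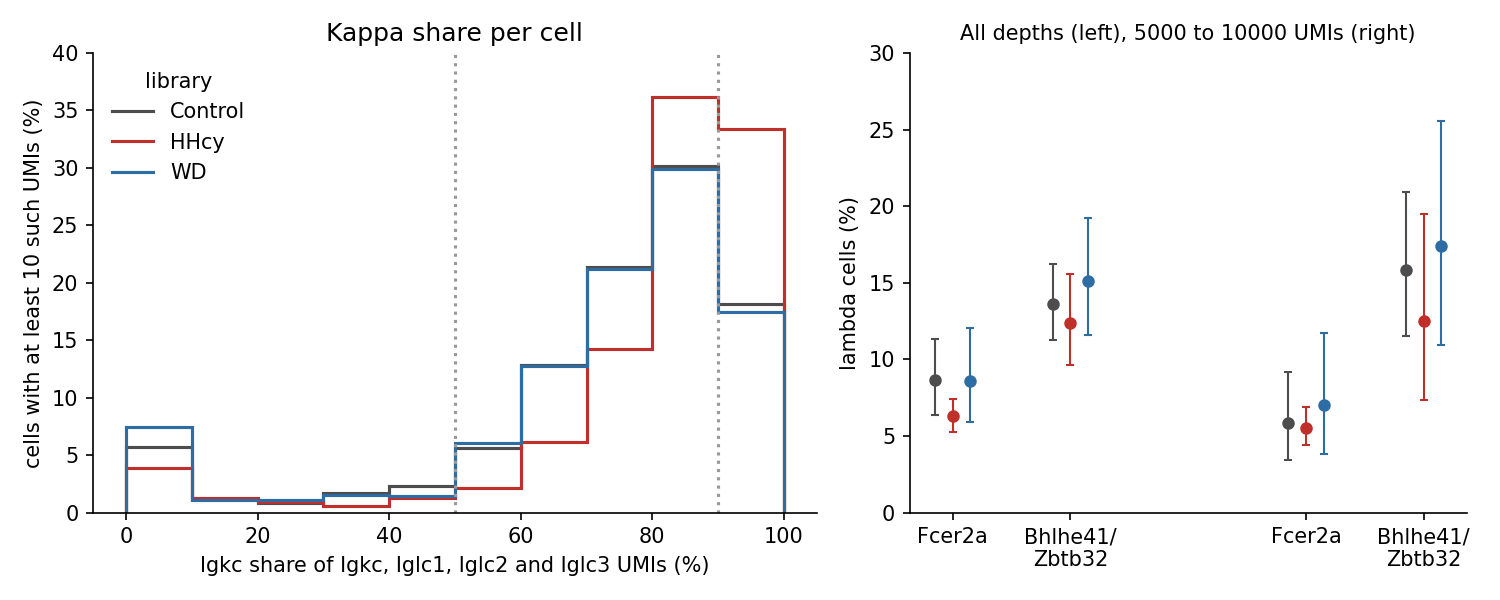
Left, distribution of the Igkc share of light-chain constant UMIs (percent, bins of 10) in cells with at least 10 such UMIs, by library, with dotted lines at the lambda and kappa limits of 50% and 90%. Right, share of lambda cells by class and library with exact 95% intervals at all depths and at 5000 to 10000 UMIs; Bhlhe41/Zbtb32 cells lie above Fcer2a cells in each library.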

How the data were processed

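The authors deposited raw UMI counts per gene and barcode, without normalization, for 3 libraries. Cell Ranger 4.0.0 is named per the file headers, while the submitters' processing notes list Cell Ranger 2.2.0 and mm10; how reads in shared stretches of Igkv genes were counted is not given in the sources used here. The total per library was 66789257, 105180370 and 93164076 UMIs. The members and gene lists were chosen with earlier results of these data known.

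Doublets were treated by the absence of Csf1r and Cd3e alone, with a stricter marker rule as an alternative. A barcode took the Igkv gene with most UMIs, and ties were left out. Genes were named by rule: the most used per library, those with at least 20 cells and the largest ratios between classes or libraries, and the phosphatidylcholine and phosphorylcholine light chains Igkv14-126, Igkv4-91 and Igkv7-33. The ratio rules found no gene at 3 UMIs, so they were applied at 1 UMI. UMI sums per library and class were tested with edgeR 4.0.16 (TMM, filterByExpr, R 4.3.3), with DESeq2 1.42.0 as an alternative. The edgeR fit was tested on simulated counts with known changes. The 3 library differences in a class contrast measure spread between libraries of different treatments. Positions and V exons came from GENCODE M21 (GRCm38). Some listed genes are not reported here.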

Additional observations from a re-analysis of the deposited data

Results flagged for a closer look

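Igkv transcripts outside the B cell rule were more frequent in the library labelled HHcy than in Control. Barcodes that passed the gene and mitochondrial limits, fell outside the rule and had an Igkv gene with at least 3 UMIs numbered 11 of 6038 in Control (0.182%, 0.0910 to 0.326), 64 of 8155 in the library labelled HHcy (0.785%, 0.605 to 1.00) and 17 of 6710 in WD (0.253%, 0.148 to 0.405). Of the 64, 48 were plasma-marked, 56 had a Csf1r UMI and 3 lacked Cd79a. They held 2455 Igkv UMIs, beside 2287 in the B cell barcodes of that library.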

How the results depend on the processing

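Of 270 values recomputed under an alternative, 215 were kept, 46 moved in size and 9, all of single genes, no longer passed the threshold. Of the 215, 69 were fold changes of single genes that kept their direction and side of the threshold. The other 146 were counts, shares and differences that stayed within the limit set for each. The number of Igkv genes called between the classes by edgeR (2) was 17 with no filter on low counts, 1 at no more than 5% mitochondrial UMIs, 0 under the stricter doublet rule (0 at an unadjusted p under 0.05), 1 without plasma-marked cells, 0 with Bhlhe41 alone (2 unadjusted) and 3 by DESeq2, which called Igkv1-110, Igkv14-126 and Igkv4-91. Leaving out 1 library gave 0 to 6: 6 without Control, 0 without the library labelled HHcy (0 unadjusted) and 5 without WD. Igkv1-110 was called in each of the 9 of 14 alternatives where it passed the filter, and Igkv1-117 in 8 of 13. Since Igkv1-110 passed the main filter through the class where it was high, its count is not read as a check of its call. Igkv1-110 was not called without the library labelled HHcy, without plasma-marked cells or under the stricter doublet rule. Nor was it called with Bhlhe41 alone or at no more than 5% mitochondrial UMIs. The mean lambda difference between the classes (5.86 points) was 5.54 to 6.30 with 1 library left out, 3.82 ± 3.35 (SD) after thinning, 3.77 ± 1.91 at no more than 5% mitochondrial UMIs and 4.66 ± 0.52 with lambda at no more than 20% Igkc.

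The assigned share (1.22%, 1.66% and 1.89%) was 20.8%, 17.6% and 21.7% from 1 UMI, 0.136%, 1.04% and 0.709% from 10, and 0.0848%, 0.422% and 0.246% after thinning. That of the library labelled HHcy was 2.52% at no more than 5% mitochondrial UMIs, 0.804% under the stricter doublet rule and 0.515% without plasma-marked cells, where WD had 1.19%. From 1 UMI, 5 genes had one sign, and 16 genes reached 20 cells for the library labelled HHcy with Control and 8 for WD with Control. The Simpson index was 0 for Control from 10 UMIs and after thinning, 7.19% for the library labelled HHcy after thinning and 28.6% for WD without plasma-marked cells. With lambda at no more than 20% Igkc, its share was 7.06%, 5.26% and 8.64%, with 4.50%, 4.03% and 5.46% of Fcer2a and 9.11%, 9.23% and 9.62% of Bhlhe41/Zbtb32 cells. After thinning it was 14.5% for all cells of Control. In Fcer2a cells it was then 11.0%, 5.91% and 12.7%, against 13.0%, 13.6% and 14.5% in Bhlhe41/Zbtb32 cells. At no more than 5% mitochondrial UMIs it was 11.1% for Bhlhe41/Zbtb32 cells of Control, 9.44% for those of the library labelled HHcy, and 7.11% for all cells of that library. Igkv14-126 with Ighv11-2 went from 0 to 2 cells at 1 UMI. The cause of these shifts was not tested. Leaving out plasma-marked cells, Bhlhe41 alone, the 5000 to 10000 UMI range and partners from 1 UMI were chosen after seeing the data. The class comparison is within library, with the library as a term; without that term 3 Igkv genes were called. No paired analysis was possible because, between groups, the labels give no replicate numbers and each group has 1 library.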
